A study of Mus musculus with 6 samples.

Results

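The genes described here are the 37 genes encoded in the mouse mitochondrial genome, found as every row of the deposited tables whose symbol begins with mt-. They are 37 of 46078 genes in each table, and all 37 lie on the mitochondrial chromosome (M) of GRCm38 (mm10). They comprise 13 protein-coding genes, 2 rRNA genes and 22 tRNA genes. RNA was taken from ovaries of C57BL/6 mice that were 8 to 9 weeks old, and sequenced as 3 control libraries and 3 libraries from the cyclophosphamide group, labelled CTX. Cyclophosphamide is a DNA-alkylating agent used against cancer, and damage to follicles is one of its known effects. The sources used here do not give the dose, the route, the interval before collection or the cycle stage of the animals. The labels do not tie libraries to separate animals, so every p-value below measures only the spread between these libraries, which may be technical.

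The mitochondrial genome is a small circle that is transcribed from both strands into long precursors. Enzymes cut these precursors at the tRNAs, which lie between the other genes like punctuation. The freed rRNAs and most of the freed mRNAs receive short poly(A) tails. The proteins are core subunits of complexes I, III and IV of the respiratory chain and of ATP synthase, and each of these complexes also needs subunits made from nuclear genes. Oocytes hold many mitochondria, and steroid-producing cells begin hormone synthesis inside them. Nuclear chromosomes carry old insertions of mitochondrial DNA, so part of the sequence of these genes exists in more than 1 place.

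Several sequences are shown here because of points taken up below. The gene pair mt-Co1 and Gm29216 is shown because it carries the only difference found within the aligned parts of mitochondrial genes and their copies on chromosome 1. The stretch of mt-Co1 lies at chrM:6390-6489 on the plus strand and the stretch of Gm29216 at chr1:24616089-24616188 on the minus strand, both in GRCm38. The capital marks the difference, A1066T, counted from 1 at the first base of mt-Co1 with the mitochondrial base first. The other 99 bases shown are the same.

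mt-Co1: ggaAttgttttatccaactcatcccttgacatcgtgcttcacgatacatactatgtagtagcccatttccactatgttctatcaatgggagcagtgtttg
Gm29216: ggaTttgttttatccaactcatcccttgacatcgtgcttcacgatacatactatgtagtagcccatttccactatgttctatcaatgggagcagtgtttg

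The ends of mt-Atp8 (chrM:7870-7969) and mt-Nd4l (chrM:10114-10173) are shown because each runs into the next gene on the plus strand. Capitals mark the 43 bases of mt-Atp8 that are also the start of mt-Atp6, and the 7 bases of mt-Nd4l that are also the start of mt-Nd4.

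mt-Atp8: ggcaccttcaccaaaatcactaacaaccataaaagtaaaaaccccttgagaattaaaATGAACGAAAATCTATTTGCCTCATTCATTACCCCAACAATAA
mt-Nd4l: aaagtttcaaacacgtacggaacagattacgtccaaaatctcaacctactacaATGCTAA

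Finally, mt-Tp (chrM:15356-15422, minus strand), the proline tRNA gene, is shown beside its neighbour mt-Tt (chrM:15289-15355, plus strand), the threonine tRNA gene. Both have 67 bases, and they differ in whether the tables list any signal.

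mt-Tp: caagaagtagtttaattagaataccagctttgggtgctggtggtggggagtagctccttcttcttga
mt-Tt: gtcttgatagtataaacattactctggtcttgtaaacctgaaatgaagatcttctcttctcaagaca

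The values are RPKM, reads per kilobase of gene scaled to sequencing depth, and low values stepped in whole reads at a depth of 15900000 to 16800000 reads in the controls and 17000000 to 22300000 in CTX. Reads recovered in this way, summed over genes of known length, were 1.19 to 1.20 times that depth in every library. The reason was not tested. Of these summed reads, members took 2.37 to 2.46% in the controls. In CTX 1, 2 and 3 the shares were 1.67, 2.43 and 2.34%. Ovarian markers were present in every library, with 17.7 to 66.7 RPKM for the oocyte growth factor gene Gdf9. Libraries did not divide by group: the mean log2(RPKM + 1) of 10 luteal cell markers was 7.93 and 8.19 in controls 1 and 2 and 8.27 in CTX 1, against 6.21 in control 3 and 6.27 and 6.24 in CTX 2 and 3. The 10 oocyte markers divided the same libraries the other way (3.79, 3.60 and 4.76 in controls 1, 2 and 3, against 3.21, 4.84 and 4.91 in CTX). CTX 1 was the library whose deviations from the 6-library mean fell with exon length over all genes tested (Spearman correlation −0.27, against 0.01 to 0.15 in the others). In bulk tissue, fewer cells of a type and less RNA per cell cannot be told apart.

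Protein-coding genes held nearly all of the mitochondrial signal. Their summed level was 22174, 21812 and 22295 RPKM in controls 1, 2 and 3, against 15691, 22405 and 21116 in CTX 1, 2 and 3. CTX 1 stood below all other libraries, while CTX 2 lay just above the controls and CTX 3 just below them. The group means were 22094 ± 251 and 19737 ± 3563 (mean ± SD, n = 3 each here and below). Luteal and oocyte markers differed between libraries as given above, and their part in these sums was not tested.

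The 2 rRNA genes, which encode the RNAs of the mitochondrial ribosome, had summed levels of 658, 671 and 570 RPKM in the controls and 632, 359 and 560 in CTX. Here CTX 2 was the low library. The rRNA sum was 2.97, 3.07 and 2.56% of the protein-coding sum in controls 1, 2 and 3, against 4.03, 1.60 and 2.65% in CTX 1, 2 and 3, so the highest and the lowest ratio were both in CTX libraries. The single tRNA gene with signal gave 1168, 916 and 739.5 RPKM in the controls and 627, 572 and 699 in CTX. These sums and ratios are descriptions without a test.

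**Figure D1:**
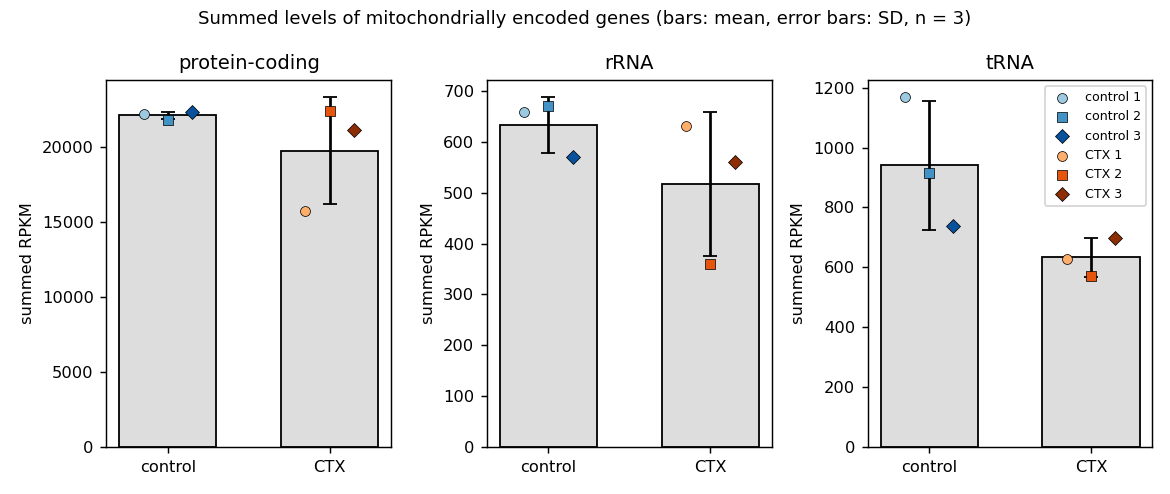
Summed RPKM of the 13 protein-coding, 2 rRNA and 22 tRNA genes (y axis, linear from 0) in control and CTX, with 1 point per library, bars for the mean and error bars for the SD (n = 3). CTX 1 is low for protein-coding genes (15691 RPKM), CTX 2 is low for rRNA genes (359 RPKM), and all CTX points lie below all control points for tRNA genes.

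CTX was compared with control in a limma fit over all 14535 genes whose RPKM reached 1 in 3 or more libraries, on log2(RPKM + 1). Of the 37 members, 16 passed this filter, and each of these had an RPKM above 1 in all 6 libraries. The other 21 are tRNA genes listed at 0 in every library. With p-values adjusted by Benjamini-Hochberg and a threshold of 0.05, 0 of the 16 were called, and the share of all tested genes called was 0% higher and 0% lower. All 16 had an adjusted p of 0.99997 in limma. At an unadjusted p under 0.05, 1 member was lower and 0 were higher, where 2.29% and 1.16% of all tested genes were. All CTX libraries lay below all controls in 1 member, the same gene, and above them in 0, where 5.5% and 3.32% of all tested genes did so. The median log2 fold change of the 16 was −0.14, with 10 negative, beside −0.01 over all tested genes.

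These counts rest on equal weights for the libraries. Limma's array weights gave 6.355, 1.06 and 0.25 to controls 1, 2 and 3, and 0.08, 2.89 and 2.49 to CTX 1, 2 and 3. With these weights, 3 of the 16 members were lower (mt-Rnr1, mt-Rnr2 and mt-Tp, adjusted p = 0.0276, 0.0351 and 0.00411 in limma). Of all 14535 tested genes, 4062 were higher and 2747 lower, and the latter is a share close to that of the members. The most weight fell on controls 1 and 2, high in luteal markers, and on CTX 2 and 3, low in them. Group and luteal content therefore cannot be told apart with these weights.

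Among the complex I genes, mt-Nd1 (chrM:2751-3707), a membrane subunit, had 3644, 3761 and 3103 RPKM in controls 1, 2 and 3, against 2965, 3334 and 3114 in CTX 1, 2 and 3. The groups overlapped, with the high values in controls 1 and 2. The log2 fold change, CTX minus control, was −0.16 ± 0.25 (SE). Its neighbour mt-Nd2 (chrM:3914-4951), another membrane subunit, had 2559, 2807 and 2094 in the controls and 1740, 2237 and 1991 in CTX. Again controls 1 and 2 were highest, and only control 3 overlapped with CTX. The log2 fold change was −0.32 ± 0.25.

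Further along the plus strand, mt-Nd4 (chrM:10167-11544) had 1340, 1467 and 1454 RPKM in the controls and 1124, 1445 and 1329 in CTX, with CTX 1 lowest and the remaining values close together (log2 fold change −0.13 ± 0.20). For mt-Nd5 (chrM:11742-13565), the longest gene of the genome, the controls were tightly grouped at 1377, 1320 and 1369. CTX 1 had 575, or 0.424 times the control mean, whereas CTX 2 and 3 had 1585 and 1419, above every control. The log2 fold change of mt-Nd5 was therefore set by 1 library: it was −0.31 ± 0.41 with all libraries and 0.15 without CTX 1.

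The last large complex I gene, mt-Nd6 (chrM:13552-14070), is the one protein-coding gene on the minus strand and shares 14 bases with mt-Nd5. It had 903, 934 and 1129 RPKM in the controls and 1017, 1162 and 937 in CTX (log2 fold change 0.07 ± 0.20), and CTX 1 lay within the controls. The ratio of mt-Nd6 to mt-Nd5 was 0.656 to 0.825 in the controls, 0.733 and 0.661 in CTX 2 and 3, and 1.77 in CTX 1. The sources used here do not say whether the authors' counting used strand, and without it reads from the opposite strand at mt-Nd6 cannot be told apart from its own.

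In complex III, mt-Cytb (chrM:14145-15288) encodes cytochrome b, the only subunit of that complex made in mitochondria. Its levels were 3991, 3896 and 4189 RPKM in the controls and 2779, 4387 and 3909 in CTX. CTX 1 was the low library, CTX 2 the highest of all, and CTX 3 lay within the controls. The log2 fold change was −0.15 ± 0.30 with all libraries and 0.04 without CTX 1.

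The catalytic subunit of complex IV, mt-Co1 (chrM:5328-6872), was the most abundant member in all 6 libraries. It had 8131, 7425 and 8729 RPKM in the controls and 5288, 7948 and 8204 in CTX, so that CTX 2 and 3 lay within the controls and CTX 1 below them. Its log2 fold change was −0.20 ± 0.36 with all libraries and −0.00042 without CTX 1. This gene held 33.7 to 39.2% of the protein-coding sum in every library.

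CTX 1 was not low for every gene. Relative to the control mean, CTX 1 had 0.424 of mt-Nd5, 0.653 of mt-Co1, 0.690 of mt-Cytb, 0.700 of mt-Nd2, 0.792 of mt-Nd4 and 0.846 of mt-Nd1, but 1.03 of mt-Nd6 and of mt-Rnr1. Of the genes sharing little sequence with other transcripts, mt-Nd5 is the longest and mt-Nd6 the shortest protein-coding one besides mt-Atp8. Across the 13 protein-coding genes, the Spearman correlation between a library's deviation and gene length was −0.24 in CTX 1 and −0.39 in CTX 2, and 0.10 to 0.64 in the others. These genes share libraries and neighbouring positions, so the correlation is only a description, and the part of transcript length or RNA quality in the CTX 1 values was not tested.

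**Figure D2:**
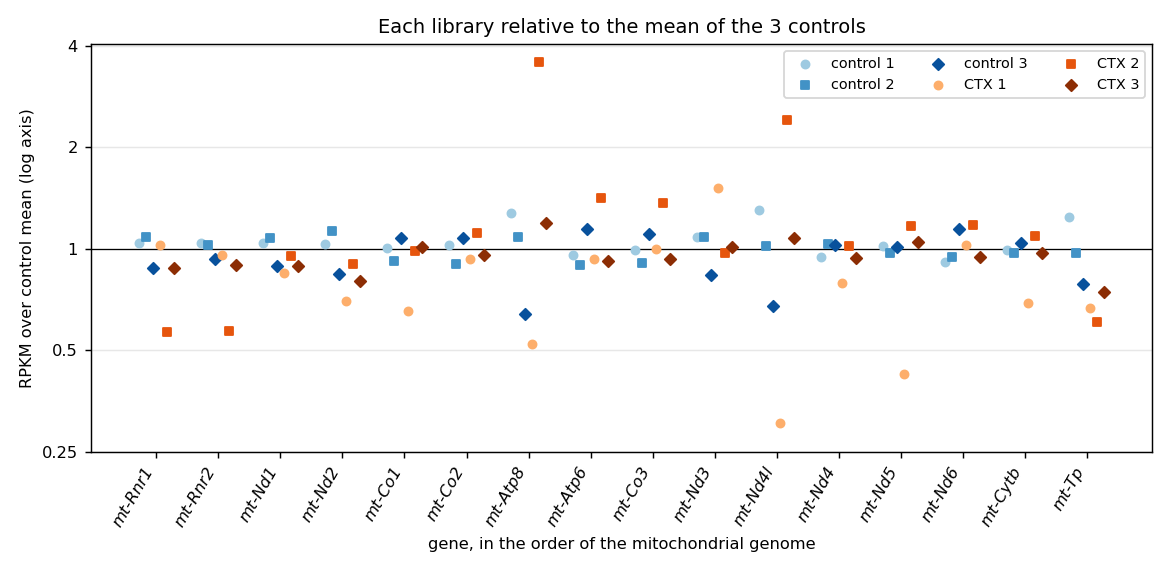
RPKM of each library divided by the mean of the 3 controls (y axis, log scale, 1 marked by the line) for the 16 members listed above 0, in the order of the genome on the x axis. CTX 1 is lowest at mt-Nd4l (0.304) and mt-Nd5 (0.424), while CTX 2 is lowest at mt-Rnr1 and mt-Rnr2 (0.567 and 0.569) and highest at mt-Atp8 (3.58).

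The rRNA genes showed another division. The small subunit rRNA gene mt-Rnr1 (chrM:70-1024) had 381, 395 and 320 RPKM in the controls and 376, 207 and 320 in CTX. The large subunit rRNA gene mt-Rnr2 (chrM:1094-2675) had 277, 275 and 250.1 in the controls and 256, 152 and 240.1 in CTX. In both, CTX 2 was far below the other libraries, CTX 1 lay within the controls and CTX 3 lay at or just below the lowest control. The log2 fold changes were −0.32 ± 0.25 for mt-Rnr1 and −0.34 ± 0.22 for mt-Rnr2, and −0.07 and −0.11 without CTX 2.

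The ratio of mt-Rnr1 to mt-Rnr2 was 1.28 to 1.44 in the controls and 1.33 to 1.47 in CTX, so that the genes kept their proportion in CTX 2 (1.36). Per length, both lay below mt-Nd1, the next protein-coding gene of the same precursor, by a wide margin in every library. The labels name the library kit but do not state whether poly(A) RNA was selected or rRNA removed.

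The remaining protein-coding genes had far lower values, and they form 1 block of the genome between mt-Co1 and mt-Nd4. For mt-Co2 (chrM:7013-7696), which encodes the subunit of complex IV that receives electrons from cytochrome c, the levels were 113, 98.9 and 118 RPKM in the controls and 103, 122 and 105 in CTX. Complex IV subunit gene mt-Co3 (chrM:8607-9390) had 42.1, 38.3 and 46.8 in the controls and 42.3, 58.0 and 39.6 in CTX. Control 3 and CTX 2 were the high libraries of their groups in both genes.

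ATP synthase gene mt-Atp6 (chrM:7927-8607), which encodes part of the proton channel, had 34.9, 32.6 and 41.5 RPKM in the controls and 33.9, 51.5 and 33.5 in CTX. Its partner mt-Atp8 (chrM:7766-7969), a small membrane subunit gene, had 14.5, 12.3 and 7.30 in the controls and 5.94, 40.7 and 13.5 in CTX. CTX 2 was the highest library for both, and for mt-Atp8 it stood at 3.58 times the control mean. In reads, mt-Atp8 rested on 47, 40 and 25 in the controls and 22, 185 and 47 in CTX.

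The complex I gene mt-Nd3 (chrM:9459-9806) had 10.7, 10.7 and 8.21 RPKM in the controls and 14.9, 9.54 and 9.96 in CTX, so CTX 1 was high. Gene mt-Nd4l (chrM:9877-10173), also of complex I, had 12.7, 9.97 and 6.62 in the controls and 2.97, 23.6 and 10.5 in CTX, so CTX 1 was lowest and CTX 2 highest. The 2 genes rested on 48 to 94 and 16 to 156 reads per library. Log2 fold changes were 0.00 ± 0.13 for mt-Co2, 0.43 ± 0.64 for mt-Atp8, 0.10 ± 0.20 for mt-Atp6, 0.12 ± 0.17 for mt-Co3, 0.18 ± 0.20 for mt-Nd3 and −0.01 ± 0.64 for mt-Nd4l, and the groups overlapped in all 6 genes. Without CTX 2, the values for mt-Co2, mt-Atp8, mt-Atp6 and mt-Co3 became negative (−0.08, −0.25, −0.10 and −0.05), as did that for mt-Nd3 without CTX 1.

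**Figure D3:**
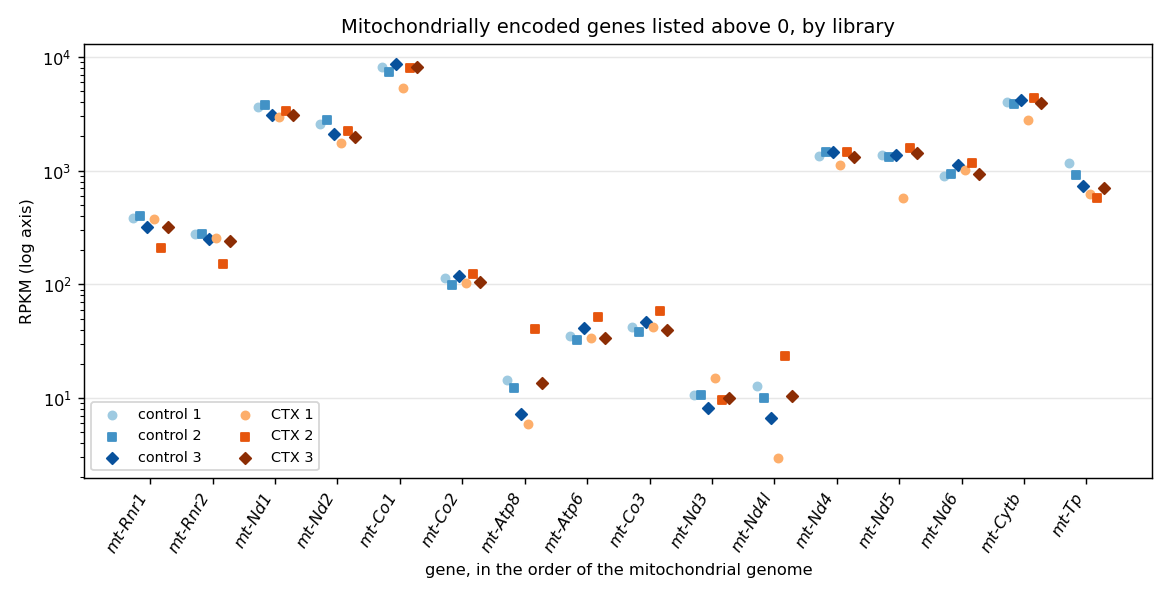
RPKM (y axis, log scale) of the 16 members listed above 0 in each of the 6 libraries, in the order of the genome on the x axis. The 6 genes from mt-Co2 to mt-Nd4l lie between 2.97 and 122 RPKM, below every other protein-coding gene in each library (575 RPKM or more).

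All genes of this block but mt-Atp8 have an annotated nuclear copy. Every 50-base stretch of each gene was looked up on both strands in all GENCODE M21 transcripts from outside the mitochondrial genome. The share found was 100% for mt-Co2, 99.5% for mt-Atp6, 99.9% for mt-Co3, 98.0% for mt-Nd3 and 98.8% for mt-Nd4l. It was 62.2% for mt-Nd4 and 51.1% for mt-Co1, 8.19% for mt-Nd2, 7.61% for mt-Nd5 and 1.04% for mt-Rnr2. For mt-Nd1, mt-Nd6, mt-Cytb, mt-Rnr1 and mt-Atp8 it was 0% at this length. In all, 15 annotated genes outside the mitochondrial genome shared at least 1 such stretch, among them 7 copies on chromosome 1. On chromosome 2, Gm13340 aligned with all 1545 bases of mt-Co1 at 97.6% identity and had 0.43 to 1.39 RPKM. Stretches were also found in Gm11512 (mt-Co1), Gm13341 (mt-Co2), Gm13339 (mt-Nd2), Gm4076 and Gm11407 (mt-Nd5) and Gm20594 (mt-Rnr2). The sources used here do not give the read length. With stretches of 100 bases the share was 99.5% for mt-Co2, 99.9% for mt-Co3 and 30.8% for mt-Co1. With 36 bases it was 4.73% for mt-Atp8, 3.07% for mt-Cytb, 2.69% for mt-Nd6 and 0% for mt-Nd1 and mt-Rnr1. The 43 bases of mt-Atp8 that also belong to mt-Atp6 are too few to hold a stretch of 50.

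The 5 genes with shares near 100% had summed levels of 190.5 to 221.3 RPKM in the controls and 196.9 to 265.0 in CTX. The 5 genes mt-Nd1, mt-Nd2, mt-Nd5, mt-Nd6 and mt-Cytb, with shares under 10%, had 11883 to 12718 and 9076 to 12706. These groups were formed after the values were seen. The gene mt-Atp8 was low with a share of 0%, but most of what surrounds it is copied: on chromosome 1 the copies of mt-Co2 and mt-Atp6 are 233 bases apart, and the matching parts of mt-Co2 and mt-Atp6 are also 233 bases apart in the mitochondrial genome. No transcript is annotated in that gap, and the genome sequence there was not analysed here. The sources used here do not say how the authors treated multiply matching reads, and the part of the copies in these low values was not tested.

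**Figure D4:**
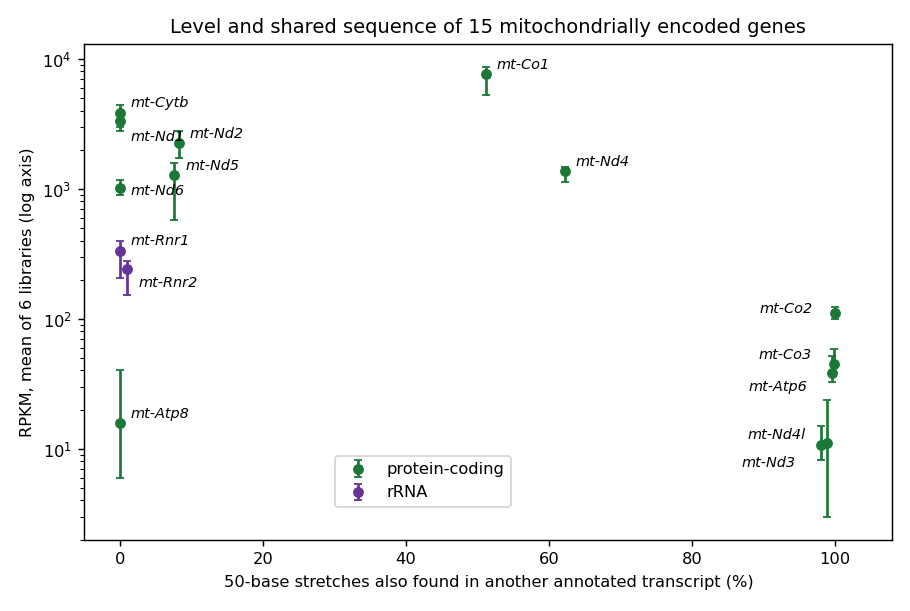
Share of 50-base stretches also found in another annotated transcript (x axis, %) and mean RPKM of the 6 libraries (y axis, log scale) for the 13 protein-coding and 2 rRNA genes, with bars for the lowest and highest library. The 5 genes above 95% lie at means of 10.7 to 110.1 RPKM, and mt-Atp8 is low at 0% (15.7 RPKM).

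The copies on chromosome 1 are 7 unprocessed pseudogenes between 24611535 and 24616197 on the minus strand, in the same order as the mitochondrial genes. Of these, 6 match their mitochondrial gene without a difference over the aligned length, and Gm29216 carries the 1 difference printed above. The aligned length was 483 of 492 bases for Gm29216 and 342 of 345 for Gm28438. The bases left out did not align and were not compared further. Gm28661, the copy of mt-Co2, had 30.3, 26.8 and 32.2 RPKM in the controls and 33.8, 47.1 and 27.4 in CTX. Gm10925, the copy of mt-Atp6, had 58.0, 48.4 and 54.2 in the controls and 41.7, 69.4 and 51.7 in CTX, above mt-Atp6 itself in all 6 libraries. Pseudogene over gene ratios were 1.23 to 1.66 for this pair, 0.734 to 0.843 for Gm28437 and mt-Co3, and 0.260 to 0.384 for Gm28661 and mt-Co2.

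The copy of mt-Nd3, Gm28438, had 6.94 to 8.29 RPKM in the controls and 7.83 to 11.1 in CTX, and Gm10222, the copy of mt-Nd4l, had 5.87 to 9.22 and 2.63 to 16.3. Gm28439 (mt-Nd4) had 10.9 to 13.1 and 6.54 to 14.5. Gm29216 (mt-Co1) had 28.3 to 33.2 in the controls and 28.9 to 58.2 in CTX. CTX 2 was the highest library for all 7 copies, as it was for mt-Co2, mt-Atp8, mt-Atp6, mt-Co3 and mt-Nd4l. It was also the highest for mt-Nd5, mt-Nd6 and mt-Cytb, which share little or no sequence with other transcripts, but not for mt-Nd3. Identical sequence leaves no means of telling from these values whether a read came from the mitochondrial gene or the nuclear copy.

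Of the tRNA genes, which are 59 to 75 bases long, 21 of 22 were listed at 0 in all libraries, 7 of them on the minus strand. The exception was mt-Tp, with 1168, 916 and 739.5 RPKM in the controls and 627, 572 and 699 in CTX, or 832 to 1246 reads in the controls and 762 to 854 in CTX. All CTX libraries lay below all controls, with control 3 nearest to CTX. Control mean and SD were 941 ± 215 and those of CTX 633 ± 63.7. The log2 fold change was −0.55 ± 0.23, with an unadjusted p of 0.0473 and an adjusted p of 0.99997 in limma, and −0.38 to −0.71 with each library left out in turn.

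The genes at 0 and mt-Tp differ in their surroundings. A read that touches 1 tRNA gene at 0 and no other annotated gene could span at most 58 to 105 bases, and at most 75 bases for 19 of the 21. After mt-Tp no further gene is annotated on the linear sequence, so reads can run from it into the noncoding control region, which holds the start sites of transcription. mt-Tt, which lies between mt-Cytb and mt-Tp without a gap, has 67 such bases. Of 993 genes with at most 75 exonic bases outside the mitochondrial genome, 246 (24.8%) were above 0 in at least 1 library and the rest were listed at 0 in every library. The sources used here do not say how reads that touch several genes were assigned. The parts of gene length and of read assignment in the zeros were not tested. Without strand, reads at mt-Tp could also come from the plus strand.

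The order of levels was stable where genes were far apart. By mean RPKM it ran mt-Co1, mt-Cytb, mt-Nd1, mt-Nd2, mt-Nd4, mt-Nd5, mt-Nd6, mt-Tp, mt-Rnr1, mt-Rnr2, mt-Co2, mt-Co3, mt-Atp6, mt-Atp8, mt-Nd4l and mt-Nd3. All 6 libraries placed mt-Co1 first, and mt-Nd2, mt-Rnr1, mt-Rnr2, mt-Co2, mt-Co3 and mt-Atp6 each held 1 place in all of them. Neighbours that did not differ beyond their spread were mt-Nd4 and mt-Nd5, with 3 libraries in each order, and mt-Nd4l and mt-Nd3, likewise with 3 in each. The control ranges of mt-Nd6 and mt-Tp overlapped too, with mt-Tp above mt-Nd6 in control 1. The ranges of mt-Co3 and mt-Atp6 and those of mt-Atp8 and mt-Nd4l overlapped in both groups, although all 6 libraries had them in this order. In CTX 1 mt-Nd1 stood above mt-Cytb, and both mt-Nd6 and mt-Tp stood above mt-Nd5. RPKM divides by the whole length of a gene, and the part of the copies in the differences across genes was not tested.

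Nuclear genes that serve the mitochondrial genome were read from the same fit, in 5 lists. The counts of called genes given below are for equal weights. With array weights, 7 of 18 genes of transcription and maintenance, 12 of 28 of RNA processing and 1 of 6 regulators were called in either direction. So were 5 of 13 mass genes and 5 of 23 partner subunits. Of all 14535 tested genes, 4062 were called higher and 2747 lower with these weights. For transcription and maintenance of mitochondrial DNA, 0 of 18 tested genes were called in either direction, 8 had positive log2 fold changes, and the median was −0.03, or 0.04 without control 3. The most abundant were Peo1 (now Twnk), the helicase of mitochondrial DNA replication, with 16.9 to 19.96 RPKM in the controls and 16.9 to 18.2 in CTX, and Rnaseh1, which removes RNA from RNA-DNA hybrids, with 15.3 to 16.8 and 14.3 to 16.4. Tfam, which packages mitochondrial DNA and starts its transcription, had 12.0 to 13.6 and 11.6 to 14.8. CTX lay below control in all libraries for 3 of the 18, where 5.5% of all tested genes did so. These 3 were picked out after their values were seen: the elongation factor gene Tefm (7.10 to 7.51 and 6.57 to 6.95) and the termination factor paralogs Mterf1a and Mterf1b, whose reads may be exchanged.

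For processing and stability of mitochondrial RNA, 0 of 28 genes were called, 20 were positive and the median was 0.04, or 0.11 with array weights. Hsd17b10, a subunit of the enzyme that cuts the start of mitochondrial tRNAs, had 66.5 to 90.4 RPKM in the controls and 78.8 to 95.5 in CTX. Rexo2, an exonuclease of short RNAs, had 52.9, 48.5 and 56.0 in the controls and 66.7, 56.1 and 62.3 in CTX, with all CTX libraries above all controls. It was the 1 gene of the 28 to do so, a share near the 3.32% of all tested genes. Grsf1, an RNA granule protein gene, had 35.2 to 43.0 and 34.1 to 39.6. Regulators that set mitochondrial number had 0 of 6 tested genes called (of 8 listed) and a median of −0.06, or 0.03 with array weights. Values were 29.6 to 31.9 and 29.3 to 31.7 for Yy1, 14.3 to 14.9 and 11.5 to 15.04 for Gabpa, and 10.9 to 14.9 and 9.85 to 16.7 for Esrra.

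Nuclear genes of mitochondrial mass and of the same enzyme complexes had their highest mean log2(RPKM + 1) in CTX 1, the library with the lowest mitochondrial protein-coding sum. Of 13 mass genes, 0 were called and 9 were positive, with a median of 0.02 that became −0.12 without CTX 1 and also −0.12 with array weights. The chaperonin gene Hspd1 had 335, 346 and 193 RPKM in the controls and 445, 205 and 222 in CTX. Adenine nucleotide carrier gene Slc25a5 had 178, 193 and 146 in the controls and 292, 185 and 178.5 in CTX. The phosphate carrier gene Slc25a3 had 132, 128 and 109 in the controls and 178, 101 and 104 in CTX.

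Of 23 nuclear partner subunits, 0 were called and 19 were positive, with a median of 0.10 that became −0.11 without CTX 1 and also −0.11 with array weights. Cox6a1 of complex IV had 334, 400 and 281 RPKM in the controls and 653, 270.0 and 276 in CTX, Cox8a of the same complex 330, 346 and 287 and 469, 238 and 241, and the catalytic ATP synthase gene Atp5b 287, 281 and 258 and 360, 251 and 257. The mean log2(RPKM + 1) of the 23 was 6.27, 6.35 and 6.20 in controls 1, 2 and 3, against 6.84, 6.15 and 6.14 in CTX 1, 2 and 3. For mt-Nd1, mt-Nd2, mt-Nd5, mt-Nd6 and mt-Cytb it was 11.07, 11.10 and 11.05 in the controls and 10.58, 11.15 and 10.97 in CTX. The difference, mitochondrial minus nuclear, was 4.75 to 4.85 in the controls, 4.99 and 4.83 in CTX 2 and 3, and 3.74 in CTX 1. CTX 1 was also the library whose deviations fell with exon length, as given above. The parts of that trend and of the luteal and oocyte content of the libraries in these values were not tested.

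**Figure D5:**
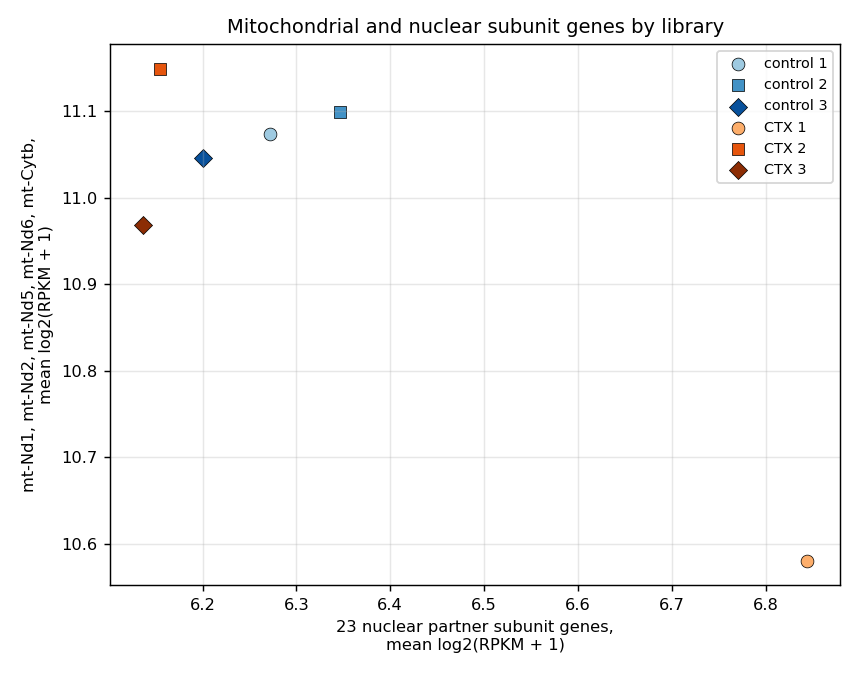
Mean log2(RPKM + 1) of 23 nuclear partner subunit genes (x axis) and of mt-Nd1, mt-Nd2, mt-Nd5, mt-Nd6 and mt-Cytb (y axis), with 1 point per library. CTX 1 lies apart at 6.84 and 10.58, while the other 5 libraries lie between 6.14 and 6.35 and between 10.97 and 11.15.

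Markers of 2 tissues rich in mitochondria that could adhere to an ovary were low. The 6 brown fat markers summed to 7.65 to 12.6 RPKM in the controls and 7.48 to 16.3 in CTX, nearly all from Cox7a1, which is also expressed in muscle. The defining gene Ucp1 was listed at 0 in all libraries but CTX 1 (0.03). The 6 skeletal muscle markers summed to 2.33 to 3.58 and 2.23 to 4.26, with Myh4 listed at 0 in all libraries. White fat markers divided the libraries, with sums of 8.54, 5.46 and 129 in controls 1, 2 and 3, against 7.03, 173 and 159 in CTX, and their part in the mitochondrial values was not tested.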

How the data were processed

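Each library came with 1 table that the authors deposited, holding a symbol, an Ensembl identifier and 1 value for each of 46078 genes. No header names the unit. The deposited values were taken as RPKM because low values of genes with at most 1000 exonic bases corresponded to a whole read count to within 0.2 reads for 97.6 to 98.0% of values. The submitters' processing notes name Bowtie 0.12.2 and mm10. The sources used here do not give the counter, read length, strand use or handling of multiply matching reads. GENCODE M21 (GRCm38) gave types, lengths, positions and transcript sequences, and 45143 identifiers matched. In the deposited symbols, 27 read as dates and 3 blanks were restored by identifier.

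Genes whose RPKM reached 1 in 3 or more of the 6 libraries were fitted as log2(RPKM + 1), a scale that understates changes of low genes, in limma 3.58.1 (R 4.3.3) with a mean-variance trend and two-sided tests. The procedure was tested only on simulated data with independent noise of the same spread in every gene. That setting is simpler than these libraries, so its outcome does not carry over to them. Members and gene lists were chosen with earlier results of these data known. Named were all protein-coding and rRNA members, the tRNA gene with signal, annotated copies with deposited values, and the 3 most abundant genes per list. Others are marked. Shared stretches were searched with lengths of 36, 50, 75 and 100 bases. Alternatives were other scalings, pseudocounts of 0.5 and 0.1, other filters, no trend, array weights, the replicate block and each library left out.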

Additional observations from a re-analysis of the deposited data

How the results depend on the processing

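No member was called under 9 of the 10 alternatives with all libraries or with any library left out; with array weights 3 were lower and 0 higher, among 4062 genes higher and 2747 lower. With each library left out in turn, 0 to 2 genes of the whole table were called higher and 0 to 3 lower, the 5 calls coming without CTX 1. Fitted log2 fold changes turned under quantile normalization for mt-Nd1 (0.031), mt-Co1 (0.13), mt-Co2 (−0.039) and mt-Nd4l (0.046), and for mt-Co2 (−0.041) after rescaling without mitochondrially encoded genes. They turned with array weights for mt-Nd3 (−0.10), mt-Nd4l (0.38), mt-Nd4 (0.027), mt-Nd5 (0.12) and mt-Cytb (0.053). The cause was not tested. Leaving out single libraries gave −0.077 to 0.054 for mt-Co2, −0.25 to 1.04 for mt-Atp8, −0.10 to 0.21 for mt-Atp6, −0.045 to 0.23 for mt-Co3 and −0.0045 to 0.29 for mt-Nd3. The ranges were −0.63 to 0.68 for mt-Nd4l, −0.58 to 0.15 for mt-Nd5, −0.011 to 0.17 for mt-Nd6 and −0.29 to 0.042 for mt-Cytb. For mt-Rnr1, mt-Rnr2, mt-Nd1, mt-Nd2, mt-Co1, mt-Nd4 and mt-Tp the direction held with every library left out. With the replicate block 0 genes were higher and 0 lower. Deviations of same-numbered libraries from their group means correlated at 0.40, −0.54 and 0.60, and control 2 correlated best with CTX 1 (0.61). These correlations take in all differences between libraries, luteal and oocyte content included. They therefore cannot decide whether the numbers pair the libraries. With 3 libraries a group and equal weights, 0 of all 14535 tested genes were called, so small differences in any member may have been missed. This holds most for mt-Atp8 and mt-Nd4l (SE 0.64 each). These genes rested on 16 to 185 reads. Their libraries also lay far apart, at 5.94 and 40.7 RPKM in CTX 1 and 2 for mt-Atp8 and 2.97 and 23.6 for mt-Nd4l.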
